A study of Mus musculus with 8 samples.

Results

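The zona pellucida and oocyte-secreted factor genes described here are 10 mouse genes chosen by name, with earlier results of these data known. They are the zona genes Zp1, Zp2 and Zp3, the protease genes Astl and Plat, the growth factor genes Gdf9 and Bmp15, and the secreted protein genes Oosp1, Oosp2 and Oosp3. Each was found on 1 transcript cluster (the set of array probes that reads a gene) annotated to it alone, so that 10 of 10 were measured, among 30709 genes in all. RNA came from 8 pools of 100 mouse embryos (B6C3F1 x CD1), labelled as late 2-cell embryos, with 1 Affymetrix array per pool and 2 pools in each of 4 groups. Zygotes had been injected at the pronuclear stage with Trim21 mRNA plus an antibody against COPS3 ("mRNA plus antibody" below), with Trim21 mRNA, or with the antibody alone, and the fourth group was non-manipulated. The antibody-alone treatment is known from the names of its samples only, since the protocol text does not describe how this group was treated. TRIM21 is a ubiquitin ligase that recognises antibodies and sends them, with what they have bound, to the proteasome, and COPS3 belongs to the COP9 signalosome, a complex that removes the ubiquitin-like NEDD8 from cullins. Culture lasted 28 h according to the protocol text and 24 h according to the age label.

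The labels describe 2-cell formation as normal with Trim21 mRNA and in non-manipulated embryos, and as stunted, with many zygotes left undivided, in both groups that received the antibody. The level of a transcript in a pool cannot tell fewer embryos that hold it apart from less of it in each embryo. No group received another antibody, so loss of COPS3 and the presence of an injected antibody cannot be told apart. Each group was treated on a day of its own within 1 week and both its pools shared that day. Thus day and group cannot be told apart, and each p below measures only the spread between pools of the same day, with a precision limited by 8 arrays.

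Growing oocytes make ZP1, ZP2 and ZP3, the glycoproteins that assemble into the zona pellucida, the coat around the egg and the early embryo. They also secrete GDF9 and BMP15, growth factors of the TGF-beta family that act on the surrounding granulosa and cumulus cells, and the oocyte-secreted proteins OOSP1, OOSP2 and OOSP3. Ovastacin, the product of Astl, leaves the cortical granules at fertilisation and cleaves ZP2, and Plat encodes tissue plasminogen activator, whose stored mRNA is translated during meiotic maturation of mouse oocytes. Transcripts of this kind are laid down in the oocyte, and many such maternal mRNAs are cleared by the 2-cell stage.

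Values are log2 levels as deposited, on which 1 unit is a 2-fold change, and the levels of different genes are not set against each other because each gene has probes of its own. The median log2 level of an array ran from 4.75 to 5.29 and the standard deviation over clusters from 2.27 to 2.71, so the arrays did not share a distribution. Both mRNA plus antibody arrays and 1 antibody-alone array had a ceiling, at which 169, 151 and 136 clusters held the array's highest value. No gene of the 10 was at the highest value of any array, and all 10 were above the array median on all 8 arrays. Trim21 itself stood at 10.40 and 10.30 with mRNA plus antibody and at 9.77 and 10.14 with Trim21 mRNA, against 6.76 and 6.37 with antibody alone and 6.27 and 5.65 in non-manipulated embryos.

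The stage label was checked against 8 markers of the late 2-cell embryo, all of which were above the array median on all arrays. Their mean log2 level was 11.68 and 11.70 with mRNA plus antibody, against 9.91 and 10.19 with Trim21 mRNA, and 10.28 and 11.02 with antibody alone, against 10.03 and 9.84 in non-manipulated embryos. Between these pairs of groups 7 and 2 of the 8 markers passed as higher and none as lower. Over all genes 8.72% and 2.75% were called higher, and 14.5% and 7.28% lower. Of 6 genes whose oocyte-made products persist in cleavage embryos, Ooep and Tle6 passed as higher with mRNA plus antibody. None passed with antibody alone, where 2 had an unadjusted p under 0.05 and the median difference of the 6 was −0.16. The smallest p there was that of Khdc3, which was lower, at 7.83 and 8.34 against 8.90 and 8.94 in non-manipulated embryos. The part of these genes in the differences below was not tested.

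The oocyte-secreted protein genes lie side by side. On mouse chromosome 19 the protein-coding neighbours run Oosp2, Oosp1 and Oosp3 in the RefSeq annotation of build GRCm38.p6, and Zp1 is on the same chromosome beside Prpf19 and Ptgdr2. Zp3 is on chromosome 5, Zp2 on 7, Plat on 8, Gdf9 on 11, Astl on 2 and Bmp15 on X. No coordinate of the array's own design is given here.

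The 250 bases before the transcription start are shown for 4 genes, because these include the gene with the largest rise among the 10 with mRNA plus antibody (Oosp2), its neighbour without a called rise (Oosp1), a second gene that rose (Bmp15) and the gene that fell (Zp3). Capitals mark E-boxes (CANNTG, which reads the same way on both strands), the motif of basic helix-loop-helix factors, a class to which the oocyte regulator FIGLA belongs. Sequences are from RefSeq, build GRCm38.p6, written 5′ to 3′ on the strand of the gene.
Zp3, chr5:135979855-135980104, plus strand: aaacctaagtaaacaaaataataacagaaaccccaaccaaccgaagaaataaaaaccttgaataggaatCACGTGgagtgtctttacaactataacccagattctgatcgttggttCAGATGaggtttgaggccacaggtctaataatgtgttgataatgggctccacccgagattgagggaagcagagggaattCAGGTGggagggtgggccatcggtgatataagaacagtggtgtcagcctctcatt
Oosp2, chr19:11660560-11660809, minus strand: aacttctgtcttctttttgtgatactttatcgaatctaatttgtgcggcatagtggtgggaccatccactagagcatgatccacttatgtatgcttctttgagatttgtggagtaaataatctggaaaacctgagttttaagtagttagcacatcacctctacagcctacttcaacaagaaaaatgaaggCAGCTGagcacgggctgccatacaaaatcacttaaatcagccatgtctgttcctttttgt
Oosp1, chr19:11691052-11691301, minus strand: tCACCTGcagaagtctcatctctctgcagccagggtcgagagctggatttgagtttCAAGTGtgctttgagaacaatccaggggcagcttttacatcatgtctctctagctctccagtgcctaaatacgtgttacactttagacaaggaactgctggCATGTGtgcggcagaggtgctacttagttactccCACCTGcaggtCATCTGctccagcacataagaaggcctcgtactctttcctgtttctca
Bmp15, chrX:6320725-6320974, minus strand: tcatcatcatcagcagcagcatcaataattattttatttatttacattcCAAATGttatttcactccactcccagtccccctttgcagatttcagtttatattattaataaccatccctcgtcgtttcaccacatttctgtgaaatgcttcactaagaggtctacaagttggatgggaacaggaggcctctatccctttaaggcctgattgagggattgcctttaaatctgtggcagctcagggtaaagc

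The Zp3 window held 3 E-boxes, beginning 181, 134 and 55 bases upstream of the start. Oosp2 had 1, at 60 bases, and Oosp1 had 5, at 249, 194, 93, 59 and 48 bases. Bmp15 had 1, at 201 bases, together with 1 TAATTA and 1 TATAAA on either strand. An E-box was present in 66.2% of the 32851 promoters of the table, TAATTA in 4.84% and TATAAA in 12.4%, so these matches only describe the windows. None of the 4 windows held TAATTG, which 7.17% of promoters held.

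**Figure D1:**
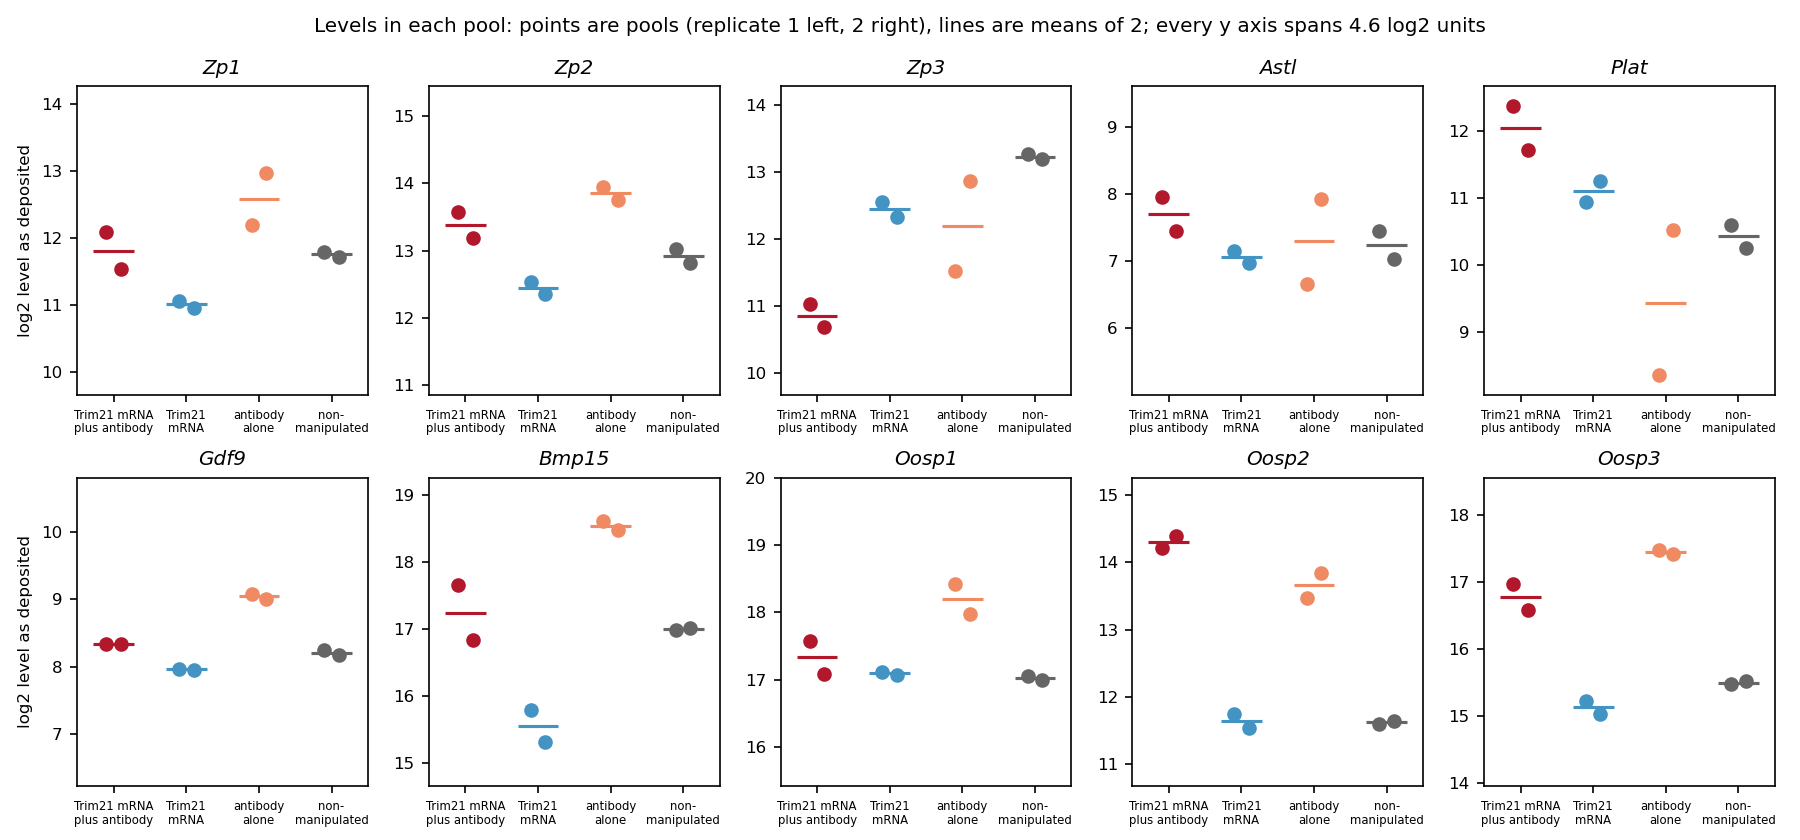
Log2 level as deposited (y axis) of each of the 10 genes in each pool, with the groups along the x axis; points are pools, horizontal lines are means of 2 pools, and every y axis spans the same number of log2 units. Oosp2 and Oosp3 sat higher in all 4 pools with antibody than in any pool without, Zp3 was lowest in the mRNA plus antibody pools, and the 2 antibody-alone pools lay far apart for Plat, Zp3 and Astl.

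Pools of the same group lay farther apart in the groups with antibody. The gap between the 2 pools, as the median over the 10 genes, was 0.44 with mRNA plus antibody and 0.19 with Trim21 mRNA, and 0.41 with antibody alone against 0.08 in non-manipulated embryos. The widest gaps were 0.82 and 0.48 for Bmp15 with mRNA plus antibody and with Trim21 mRNA, 2.15 for Plat with antibody alone and 0.42 for Astl in non-manipulated embryos. Over all genes the median gaps were 0.23, 0.12, 0.42 and 0.10 in the same order of groups.

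mRNA plus antibody against Trim21 mRNA compared embryos with and without the antibody that all held injected mRNA. Oosp2, Oosp3, Bmp15 and Zp2 rose and Zp3 fell, while Zp1, Gdf9, Oosp1, Astl and Plat did not pass an adjusted p of 0.05 (limma, Benjamini-Hochberg over all 30709 genes). The 4 rises of 10 stand beside 8.72% of all genes called higher, and the 1 fall beside 14.5% called lower. Because the 10 genes were chosen with earlier results known, such counts here and below only describe and are no independent test. The median difference was 0.86 over the 10 genes and 0.21 over all genes.

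Antibody alone against non-manipulated embryos set embryos with and without the antibody against each other where neither held injected mRNA, and there the injection differed too. Oosp2, Oosp3, Bmp15, Oosp1, Zp2 and Gdf9 rose and none of the 10 fell. The 6 rises stand beside 2.75% of all genes called higher, and the 0 falls beside 7.28% called lower. The median difference was 0.89 over the 10 genes and 0.18 over all genes.

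**Figure D2:**
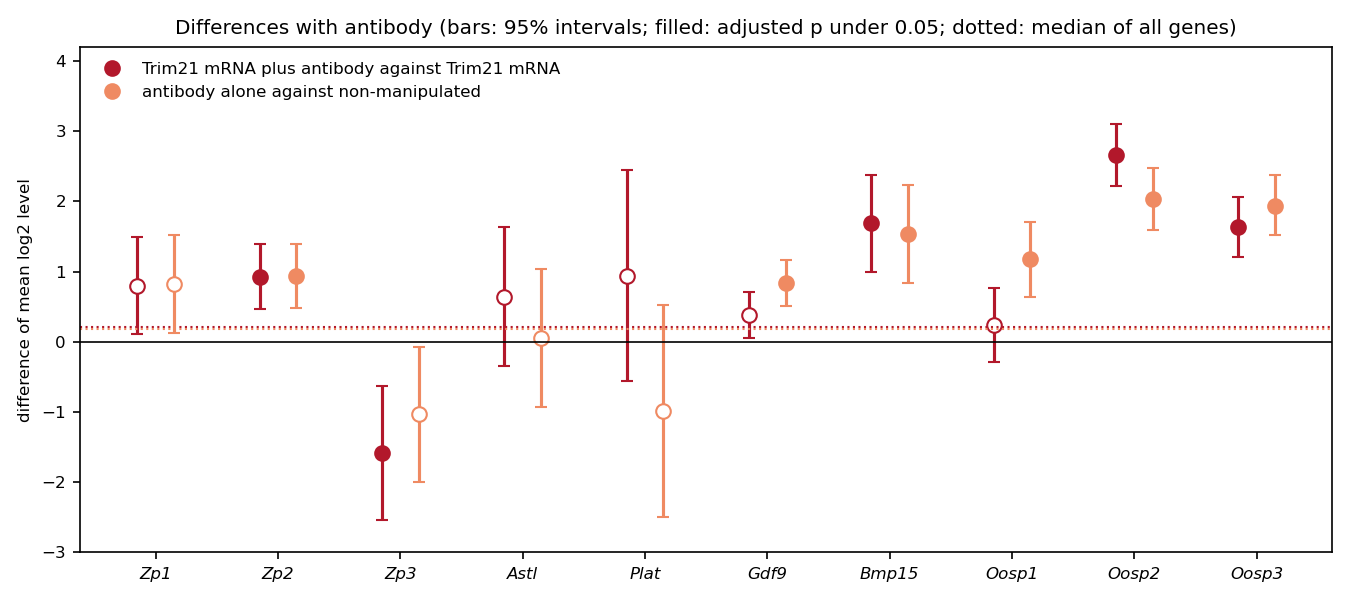
Difference of mean log2 level (y axis) for each gene, with mRNA plus antibody against Trim21 mRNA in dark red and antibody alone against non-manipulated embryos in orange; bars are limma's 95% intervals, filled points had an adjusted p under 0.05, and dotted lines are the medians of all genes. Filled points lie above 0 for Oosp2, Oosp3, Bmp15 and Zp2 in both comparisons and for Gdf9 and Oosp1 with antibody alone, and below 0 for Zp3 with mRNA plus antibody.

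Oosp2 (cluster TC1900001141.mm.1) stood at 14.22 and 14.39 with mRNA plus antibody, against 11.75 and 11.54 with Trim21 mRNA. It stood at 13.47 and 13.85 with antibody alone, against 11.60 and 11.64 in non-manipulated embryos. All 4 pools with antibody were above all 4 without, and the pools without antibody hardly differed between their 2 groups. The difference was 2.66 ± 0.19 with mRNA plus antibody (limma's standard error, 6.32-fold with a 95% interval of the fold of 4.66 to 8.58, adjusted p = 0.00015) and 2.04 ± 0.19 with antibody alone (4.11-fold, 3.03 to 5.58, adjusted p = 0.003). The first was called under all 18 alternative settings and lay between 2.33 and 3.52 over 3 other scalings of the arrays. The second was called under 14 of 17, and without non-manipulated replicate 1 or 2 it was 2.02 (adjusted p = 0.058) or 2.06 (adjusted p = 0.05, not passed before rounding).

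Oosp3 (cluster TC1900000230.mm.1) stood at 16.97 and 16.58 with mRNA plus antibody, against 15.23 and 15.04 with Trim21 mRNA. It stood at 17.47 and 17.42 with antibody alone, against 15.48 and 15.52 in non-manipulated embryos. Again no pool with antibody overlapped a pool without. The differences were 1.64 ± 0.18 with mRNA plus antibody (3.12-fold, adjusted p = 0.00092) and 1.94 ± 0.18 with antibody alone (3.85-fold, adjusted p = 0.0031), and the first was called under all 18 settings. The second was called under 14 of 17, and without non-manipulated replicate 1 or 2 it was 1.92 (adjusted p = 0.061) or 1.96 (adjusted p = 0.051).

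Oosp1 (cluster TC1900001142.mm.1), between these genes on the chromosome, was called with antibody alone and not with mRNA plus antibody, a difference tested as an interaction further on. It stood at 17.58 and 17.09 with mRNA plus antibody, against 17.12 and 17.07 with Trim21 mRNA, and these pools overlapped. It stood at 18.42 and 17.98 with antibody alone, against 17.05 and 17.00 in non-manipulated embryos, where both antibody pools were higher. The differences were 0.24 ± 0.22 (adjusted p = 0.44) and 1.18 ± 0.22 (2.26-fold, adjusted p = 0.023), and the second call ended after median centring (0.89, adjusted p = 0.055). It also ended without non-manipulated replicate 1 (1.20) or 2 (1.15), each with an adjusted p of 0.16, and without Trim21 mRNA replicate 1 or 2 (1.18, adjusted p = 0.063). The first lay between −0.09 after median centring and 0.73 after cyclic loess, where it was called.

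Bmp15 (cluster TC0X00001762.mm.1) stood at 17.65 and 16.83 with mRNA plus antibody, against 15.79 and 15.31 with Trim21 mRNA. It stood at 18.60 and 18.48 with antibody alone, against 16.99 and 17.02 in non-manipulated embryos. Within each pair of groups the antibody pools were higher, but the second mRNA plus antibody pool lay below both non-manipulated pools, so the 4 pools with antibody did not clear the 4 without. The differences were 1.69 ± 0.29 (3.23-fold, 95% interval 1.99 to 5.22, adjusted p = 0.0067) and 1.54 ± 0.29 (2.90-fold, 1.79 to 4.69, adjusted p = 0.023). The first was called under 17 of 18 settings, the exception being without Trim21 mRNA replicate 2 (1.45, adjusted p = 0.059). The second call ended after median centring (1.25, adjusted p = 0.072) and without non-manipulated replicate 1 (1.52, adjusted p = 0.17) or 2 (1.55, adjusted p = 0.15).

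Gdf9 (cluster TC1100000604.mm.1), the partner of Bmp15 in signalling to granulosa cells, was called with antibody alone. It stood at 8.34 in both mRNA plus antibody pools, against 7.97 and 7.95 with Trim21 mRNA. It stood at 9.08 and 9.01 with antibody alone, against 8.24 and 8.17 in non-manipulated embryos. All 4 pools with antibody were above all 4 without, by a small margin over the non-manipulated pools. The differences were 0.38 ± 0.14 (1.30-fold, adjusted p = 0.092) and 0.84 ± 0.14 (1.79-fold, adjusted p = 0.015), and the second call ended after median centring (0.55, adjusted p = 0.086). It also ended without non-manipulated replicate 1 (0.87, adjusted p = 0.14) or 2 (0.80, adjusted p = 0.15) and without Trim21 mRNA replicate 1 or 2 (0.84, adjusted p = 0.054). With mRNA plus antibody the value was 0.04 after median centring and 0.91 after quantile normalization, where the adjusted p was 0.0046. It was also called after cyclic loess (0.82, adjusted p = 0.0083) and without either or both antibody-alone replicates (0.38, adjusted p = 0.028).

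Among the zona genes Zp2 and Zp3 moved in opposite directions with mRNA plus antibody. Zp2 (cluster TC0700004193.mm.1), whose protein is cleaved after fertilisation, stood at 13.57 and 13.18 with mRNA plus antibody, against 12.53 and 12.36 with Trim21 mRNA. It stood at 13.94 and 13.76 with antibody alone, against 13.02 and 12.81 in non-manipulated embryos. All 4 pools with antibody were above all 4 without. The differences were almost equal, at 0.93 ± 0.19 (1.91-fold, 95% interval 1.39 to 2.62, adjusted p = 0.014) and 0.94 ± 0.19 (1.91-fold, 1.39 to 2.63, adjusted p = 0.029). Both calls ended after median centring, where the values were 0.60 (adjusted p = 0.12) and 0.64 (adjusted p = 0.13). The first also ended without Trim21 mRNA replicate 1 (1.01, adjusted p = 0.07) or 2 (0.84, adjusted p = 0.11) and without mRNA plus antibody replicate 1 (0.74, adjusted p = 0.062). The second ended without non-manipulated replicate 1 (1.04, adjusted p = 0.16) or 2 (0.83, adjusted p = 0.22) and without Trim21 mRNA replicate 1 or 2 (0.94, adjusted p = 0.074).

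Zp3 (cluster TC0500001593.mm.1), whose protein builds the zona filaments together with ZP2, stood at 11.03 and 10.69 with mRNA plus antibody, against 12.56 and 12.33 with Trim21 mRNA. It stood at 11.53 and 12.87 with antibody alone, against 13.27 and 13.19 in non-manipulated embryos. The mRNA plus antibody pools were the lowest of all 8, and both antibody-alone pools were below both non-manipulated pools but far from each other. The differences were −1.58 ± 0.40 (3.0-fold lower, 95% interval 1.54 to 5.83, adjusted p = 0.031) and −1.03 ± 0.40 (adjusted p = 0.16), and the call with mRNA plus antibody ended after quantile normalization (−0.83, adjusted p = 0.17) and cyclic loess (−0.86, adjusted p = 0.16). It held under 10 of 18 settings. It ended without replicate 1 or 2 of the non-manipulated embryos (−1.58, adjusted p = 0.065), of Trim21 mRNA (−1.47 and −1.70, adjusted p = 0.17 and 0.11) or of mRNA plus antibody (−1.76 and −1.42, adjusted p = 0.081 and 0.15). With antibody alone the value was −0.36 without its replicate 1 and −1.70 without its replicate 2, where the adjusted p was 0.0013.

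The bins of all genes by level show where these differences stood. Among the 1013 genes with a mean log2 level of 12 to 14, which include Zp2, Zp3 and Oosp2, the median difference was −1.05 with mRNA plus antibody and −0.39 with antibody alone. Among the 101 genes at 16 to 18, which include Bmp15, Oosp1 and Oosp3, it was −1.37 and −0.26. At 10 to 12, the range of Zp1 and Plat, it was −0.74 and −0.38. Zp2 and Oosp2 were thus above the median of genes of like level in both comparisons. With mRNA plus antibody Zp3 was below it, at −1.58, but limma's interval of −2.54 to −0.63 held the median of −1.05. With antibody alone Zp3 was at −1.03 against −0.39. Its place there rested on antibody-alone replicate 1, without which it was at −0.36. Where Zp3 stood among genes of like level after quantile normalization or cyclic loess was not tested.

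Zp1 (cluster TC1900001117.mm.1), which cross-links the zona filaments, stood at 12.09 and 11.54 with mRNA plus antibody, against 11.07 and 10.96 with Trim21 mRNA. It stood at 12.20 and 12.97 with antibody alone, against 11.80 and 11.72 in non-manipulated embryos. In each pair both antibody pools were higher, but the second mRNA plus antibody pool lay below the non-manipulated pools. The differences of 0.80 ± 0.29 (adjusted p = 0.094) and 0.82 ± 0.29 (adjusted p = 0.13) did not pass, and their 95% log2 intervals were 0.11 to 1.49 and 0.13 to 1.52. The first passed after quantile normalization (1.67, adjusted p = 0.0033) and cyclic loess (1.52, adjusted p = 0.0042) and was 0.47 after median centring (adjusted p = 0.50). It also passed without either or both antibody-alone replicates (0.80, adjusted p = 0.017) and when only these groups were fitted (0.80, adjusted p = 0.04). The second passed after quantile normalization (1.08, adjusted p = 0.042), after cyclic loess (1.05, adjusted p = 0.037) and without antibody-alone replicate 1 (1.21, adjusted p = 0.018).

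Neither protease gene passed in either comparison with all 8 arrays fitted. Astl (cluster TC0200001914.mm.1), for ovastacin, stood at 7.96 and 7.45 with mRNA plus antibody, against 7.15 and 6.97 with Trim21 mRNA, and at 6.66 and 7.93 with antibody alone, against 7.45 and 7.03 in non-manipulated embryos. The antibody-alone pools held the lowest of the 8 values and nearly the highest, and overlapped every other group. The differences were 0.64 ± 0.41 (adjusted p = 0.28, 95% interval −0.34 to 1.63) and 0.05 ± 0.41 (adjusted p = 0.93, −0.93 to 1.04).

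Plat (cluster TC0800000286.mm.1) stood at 12.37 and 11.72 with mRNA plus antibody, against 10.94 and 11.26 with Trim21 mRNA. It stood at 8.37 and 10.52 with antibody alone, against 10.60 and 10.26 in non-manipulated embryos. The mRNA plus antibody pools were the highest of the 8, and the first antibody-alone pool was far below all others. The differences were 0.94 ± 0.64 (adjusted p = 0.30) and −0.98 ± 0.64 (adjusted p = 0.32). The first passed, at the same 0.94, without either or both antibody-alone replicates (adjusted p = 0.023) and when only these groups were fitted (adjusted p = 0.042). With antibody alone the value was 0.09 without its replicate 1 and −2.06 without its replicate 2, so the negative sign rested on replicate 1.

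The number of calls among the 10 genes depended on single pools, as did the share of all genes called in either direction. With mRNA plus antibody against Trim21 mRNA 5 of the 10 were called in all, beside 23.2% of all genes. There were 3 without Trim21 mRNA replicate 1 (11.0% of all genes), 2 without its replicate 2 (11.3%), 3 without mRNA plus antibody replicate 1 (17.8%) and 8 without either antibody-alone replicate (46.2%). With antibody alone against non-manipulated embryos 6 of the 10 were called in all, beside 10.0% of all genes. There were 0 without non-manipulated replicate 1 (0.306% of all genes) or 2 (0.508%) and 3 without either Trim21 mRNA replicate (4.43%).

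**Figure D3:**
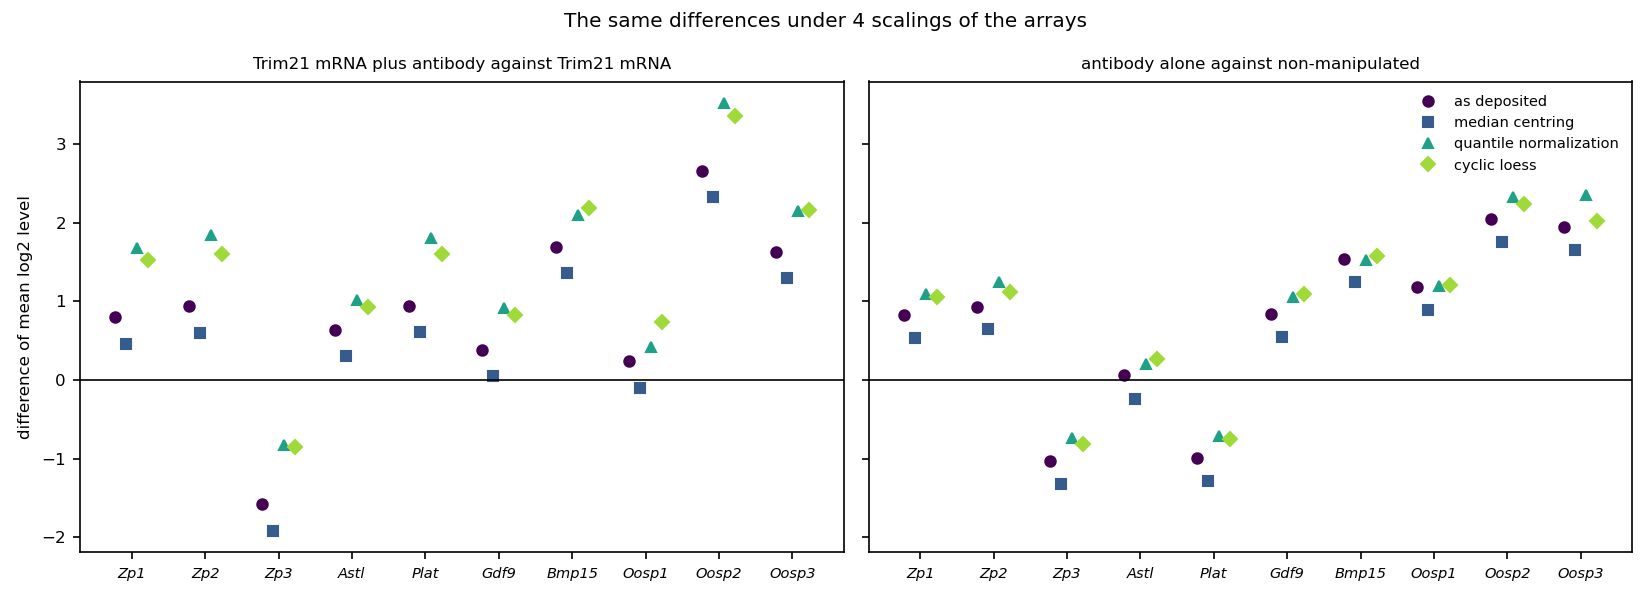
Difference of mean log2 level (y axis) of each gene on the deposited scale (circles) and after median centring (squares), quantile normalization (triangles) and cyclic loess (diamonds), for mRNA plus antibody against Trim21 mRNA (left) and antibody alone against non-manipulated embryos (right). Oosp2, Oosp3 and Bmp15 stayed above 0 and Zp3 stayed below 0 on every scale in both panels, while Oosp1 crossed 0 after median centring on the left and Astl on the right.

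Scaling also set how many genes cleared all pools. On the deposited scale 4 of the 10, Zp2, Gdf9, Oosp2 and Oosp3, had all 4 pools with antibody above all 4 without, where 16.7% of all genes did, and 0 had them all below, where 13.8% did. After median centring Oosp2 and Oosp3 were left, beside 3.32% of all genes. After quantile normalization and after cyclic loess there were 7 (these 4 with Zp1, Bmp15 and Oosp1), beside 9.51% and 9.76%. Centring moved the median difference of all genes to −0.12 with mRNA plus antibody and −0.11 with antibody alone. With mRNA plus antibody, all genes gave 2679 calls higher and 4449 lower on the deposited scale, but 876 and 5366 once medians were centred and 3212 and 3787 on the quantile scale. With antibody alone the pairs were 846 and 2237, then 352 and 2644, then 1017 and 1395.

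Trim21 mRNA against non-manipulated embryos compared embryos with and without the injected mRNA where neither held antibody. Here too the injection itself differed, so mRNA and injection cannot be told apart. None of the 10 genes was called by limma, and 3 had an unadjusted p under 0.05. The 0 rises and 0 falls stand beside 0.00326% of all genes called higher and 0% called lower, the 1 called gene being Trim21 (adjusted p = 0.048, named after its value was seen). The 3 genes were Bmp15 at −1.46 ± 0.29 (adjusted p = 0.48), Zp1 at −0.75 ± 0.29 (adjusted p = 0.76) and Zp2 at −0.47 ± 0.19 (adjusted p = 0.78). In each of them both Trim21 mRNA pools were below both non-manipulated pools. When only these 2 groups were fitted, Bmp15 (adjusted p = 0.025), Zp1 (adjusted p = 0.026) and Zp3 (−0.78, adjusted p = 0.03) were called lower, beside 8.21% of all genes called in either direction.

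This comparison and the first share the Trim21 mRNA pools. Against non-manipulated embryos, mRNA plus antibody pools had 2 genes higher, Oosp2 at 2.68 ± 0.19 (6.43-fold, adjusted p = 0.00014) and Oosp3 at 1.27 ± 0.18 (2.42-fold, adjusted p = 0.0025). Zp3 was lower there, at −2.37 ± 0.40 (5.17-fold lower, 95% interval 2.66 to 10.0, adjusted p = 0.0056). The 2 rises stand beside 15.1% of all genes called higher and the 1 fall beside 16.6% called lower. All 3 calls held under all 18 alternative settings, Zp3 with values between −2.83 and −1.55 over the other scalings.

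Bmp15 and Zp2 did not pass against non-manipulated embryos. Bmp15 was at 0.23 ± 0.29 (adjusted p = 0.54), with overlapping pools, and Zp2 at 0.46 ± 0.19 (adjusted p = 0.10). Plat was at 1.62 ± 0.64 (adjusted p = 0.091), with both mRNA plus antibody pools higher. Quantile normalization and cyclic loess gave 7 and 8 calls among the 10 in this comparison in place of 3, beside 24.8% and 24.6% of all genes in place of 31.7%. On these scales Zp2 was at 1.44 (adjusted p = 0.0011) and 1.13 (adjusted p = 0.0036) and it did not pass after median centring. Plat was at 2.46 (adjusted p = 0.03) and 2.29 (adjusted p = 0.033) on them, and it was also called without either or both antibody-alone replicates (1.62, adjusted p = 0.0026).

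mRNA plus antibody against antibody alone compared embryos with and without the injected mRNA that all held antibody. Plat was higher, at 2.60 ± 0.64 (6.06-fold, 95% interval 2.13 to 17.3, adjusted p = 0.037). Bmp15 (−1.30 ± 0.29, adjusted p = 0.028), Gdf9 (−0.71 ± 0.14, adjusted p = 0.016) and Oosp1 (−0.87 ± 0.22, adjusted p = 0.046) were lower, of which Gdf9 and Oosp1 did not pass after cyclic loess (−0.44 and −0.45), nor Bmp15 (−0.88, adjusted p = 0.055). The 1 rise stands beside 4.37% of all genes called higher and the 3 falls beside 10.5% called lower. Oosp3 was at −0.67 ± 0.18 (adjusted p = 0.052), Zp3 at −1.34 ± 0.40 (adjusted p = 0.075) and Oosp2 at 0.64 ± 0.19 (adjusted p = 0.064), and none of them passed.

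The difference of Plat was 1.52 without antibody-alone replicate 1 and 3.68 without replicate 2, was called in both cases, and was called under 8 of 17 settings in all. It did not pass after median centring (2.43, adjusted p = 0.094), when only these groups were fitted (adjusted p = 0.13), without replicate 1 or 2 of the non-manipulated embryos (adjusted p = 0.075) or of Trim21 mRNA (adjusted p = 0.073), or without mRNA plus antibody replicate 1 (2.28, adjusted p = 0.16) or 2 (2.92, adjusted p = 0.12). The calls of Bmp15, Gdf9 and Oosp1 ended without either non-manipulated replicate (adjusted p = 0.066, 0.058 and 0.10) and without mRNA plus antibody replicate 2 (−0.89, −0.70 and −0.62). Those of Gdf9 and Oosp1 also ended without either Trim21 mRNA replicate (adjusted p = 0.056 and 0.10), that of Gdf9 without mRNA plus antibody replicate 1 (adjusted p = 0.053) and that of Oosp1 without antibody-alone replicate 1 (−0.65, adjusted p = 0.06). The number of calls in this comparison was 4 in all, beside 14.8% of all genes. It was 0 without either non-manipulated replicate (9.79% of all genes) or without mRNA plus antibody replicate 2 (8.11%), and 1 without either Trim21 mRNA replicate (10.3%). It was 6 without antibody-alone replicate 1 (34.0%) and 8 without its replicate 2 (27.5%).

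The difference of mRNA plus antibody from Trim21 mRNA minus that of antibody alone from non-manipulated embryos was tested as an interaction. Only the second difference also holds the injection itself, so dependence on the mRNA and a part of the injection cannot be told apart. None of the 10 genes was called by limma, and 1 had an unadjusted p under 0.05. That was Oosp1 at −0.94 ± 0.32 (adjusted p = 0.21). The 0 rises and 0 falls stand beside 0.625% of all genes called higher and 3.46% called lower. Plat was at 1.93 ± 0.90 (adjusted p = 0.41, 95% interval −0.21 to 4.07), Oosp2 at 0.62 ± 0.26 (adjusted p = 0.34) and Zp2 at −0.01 ± 0.27 (95% interval −0.65 to 0.64). Without antibody-alone replicate 1 there was 1 call, Zp3 at −1.23 (adjusted p = 0.026), beside 13.2% of all genes. Without replicate 2 there were 3, Oosp1 at −1.16 (adjusted p = 0.034), Oosp2 at 0.81 (adjusted p = 0.041) and Plat at 3.00 (adjusted p = 0.0047), beside 18.4% of all genes.

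The profiles of the 10 genes over the 8 arrays, each centred on its own mean, were compared by their root-mean-square difference in log2 units, as a description. Gdf9 and Oosp1 lay closest among the 10, at 0.20, followed by Zp2 and Gdf9 at 0.23 and Zp2 and Oosp1 at 0.27. Bmp15 lay nearest to Oosp3, at 0.47, and Oosp2 nearest to Oosp3, at 0.59. Zp3 was at least 1.06 from each of the others, and Plat was 0.89 from Astl and farther from the rest. All points share the same 8 arrays.

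The same measure was taken against 18221 other named genes. Nearest to Oosp2 were Nlrp9b (0.22), an oocyte gene of the NLR family, and Tcl1b5 (0.24). Nearest to Oosp3 were Nlrp9c (0.14) and Bmp5 (0.14), a ligand of the BMP family, and nearest to Bmp15 were Rb1 (0.19), the retinoblastoma gene, and Septin11 (0.20). Zp1 was matched by Atp10b (0.10) and Rps6ka5 (0.11), Zp2 by Antxr2 (0.05) and Ecpas (0.09), and Zp3 by Exosc9 (0.10), an exosome subunit, and Ska2 (0.12), a kinetochore protein. Gdf9 was matched by Gabrr3 (0.06) and Dtwd1 (0.09), Oosp1 by Pcolce2 (0.09) and Npc1 (0.11), and Plat, less closely, by Cdh3 (0.30) and B4galt5 (0.37). The group means of Astl spanned 0.64, under the 1 log2 unit required for a match.

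Genes that work with these 10 were followed as 5 lists, also chosen with earlier results of these data known. Their counts stand beside 8.72% of all genes called higher and 14.5% lower with mRNA plus antibody. With antibody alone these shares were 2.75% and 7.28%. Of the oocyte transcription regulators of zona and secreted-factor genes, 8 of 8 were measured, and with mRNA plus antibody 3 rose and 1 fell. Nobox, a homeobox factor needed for oocyte genes such as Gdf9, stood at 11.29 and 11.34 with mRNA plus antibody, against 9.15 and 9.25 with Trim21 mRNA. With antibody alone it stood at 8.87 and 9.46, against 9.04 and 8.99 in non-manipulated embryos. The mRNA plus antibody pools stood above the other 6, and the differences were 2.12 ± 0.21 (adjusted p = 0.00062) and 0.15 ± 0.21 (adjusted p = 0.63).

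Sohlh2, a helix-loop-helix factor of early oocytes, rose by 1.42 ± 0.23 with mRNA plus antibody (adjusted p = 0.0049) and by 1.10 ± 0.23 with antibody alone (adjusted p = 0.029), where it was the 1 call of the 8. The first call ended without Trim21 mRNA replicate 1 (1.30, adjusted p = 0.051). The second ended without either replicate of the non-manipulated embryos (1.26 and 0.95, adjusted p = 0.14 and 0.21), of Trim21 mRNA (adjusted p = 0.07) or of mRNA plus antibody (adjusted p = 0.054). Taf4b, a germ cell subunit of the TFIID complex, fell by 1.48 with mRNA plus antibody (adjusted p = 0.0039), and after quantile normalization or cyclic loess no regulator was called lower. After median centring no regulator was called higher with antibody alone and 1 was called lower. With mRNA plus antibody Sohlh2 was called on 2 of 3 other scalings, with values between 1.09 and 1.66. The list medians were 0.71 and 0.22, beside 0.21 and 0.18 over all genes. Figla, named here for its E-box, the activator of the zona genes in mouse oocytes, stood at 4.19 and 4.85 with mRNA plus antibody, against 3.89 and 4.00 with Trim21 mRNA (0.57 ± 0.24, adjusted p = 0.12). It was below the array median on all 8 arrays.

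**Figure D4:**
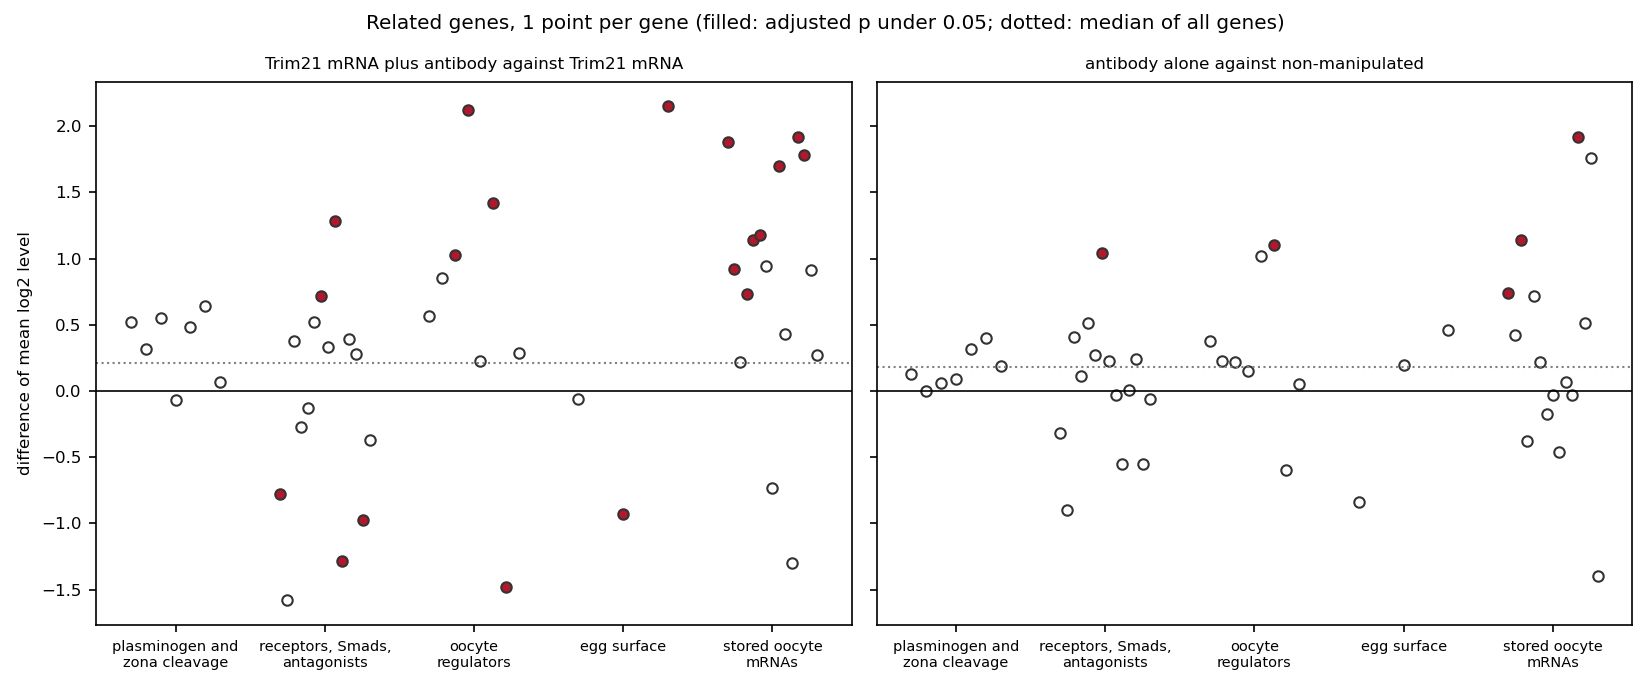
Difference of mean log2 level (y axis) of each gene of 5 related lists (x axis), for mRNA plus antibody against Trim21 mRNA (left) and antibody alone against non-manipulated embryos (right); filled points had an adjusted p under 0.05 and the dotted line is the median of all genes. The left panel holds 8 filled points above 0 among the stored oocyte mRNAs and the right panel 3, and no gene of plasminogen activation is filled in either.

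Receptors, Smads and antagonists of GDF9 and BMP15 were all measured (14 of 14), and with mRNA plus antibody 2 rose and 3 fell, beside 8.72% and 14.5% of all genes. Smad4, the common partner of the receptor-activated Smads, stood at 9.09 and 8.68 with mRNA plus antibody, against 10.21 and 10.12 with Trim21 mRNA, and fell by 1.28 (adjusted p = 0.0035). Smad7, an inhibitory Smad, fell by 0.97 (adjusted p = 0.011), and Smad1, which carries BMP signals, rose by 0.72 ± 0.18 (adjusted p = 0.031). The call of Smad1 ended without either replicate of any group other than antibody alone (adjusted p between 0.077 and 0.21), and that of Smad7 without Trim21 mRNA replicate 2 (−0.83, adjusted p = 0.10) or mRNA plus antibody replicate 2 (−0.84, adjusted p = 0.066). After median centring no gene of this list was called higher and 3 lower, and after quantile normalization 6 were called higher and 2 lower. Smad7 was called on 1 of 3 other scalings, with values between −1.3 and −0.35. Smad1 was the 1 gene of the 14 called with antibody alone, at 1.04 ± 0.18 (adjusted p = 0.018), beside 2.75% of all genes called higher. That call ended without non-manipulated replicate 1 (1.01, adjusted p = 0.16) or 2 (1.07, adjusted p = 0.13). The list medians were 0.08 and 0.06.

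No gene of plasminogen activation and the control of zona cleavage was called by limma in either comparison, of 7 measured out of 9, and 4 and 0 had an unadjusted p under 0.05. Serine protease inhibitor gene Serpinb2 had the smallest p with mRNA plus antibody, at 0.64 ± 0.20 (adjusted p = 0.064). Plg, for plasminogen, had it with antibody alone, at 0.32 ± 0.16 (adjusted p = 0.23). The list medians were 0.48 and 0.13. Of 3 egg surface genes of sperm binding and fusion, Izumo1r, the sperm receptor JUNO, rose by 2.15 ± 0.24 with mRNA plus antibody (adjusted p = 0.00095). Cd9, the tetraspanin needed for fusion, fell by 0.93 (adjusted p = 0.012), although not on the quantile and cyclic loess scales, nor without Trim21 mRNA replicate 1 (−0.82, adjusted p = 0.11) or 2 (−1.04, adjusted p = 0.051) or mRNA plus antibody replicate 2 (−0.78, adjusted p = 0.063). With antibody alone none was called and 1 had an unadjusted p under 0.05, Cd81, another tetraspanin, at −0.84 ± 0.29 (adjusted p = 0.12).

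Of 16 other mRNAs stored in the oocyte 15 were measured, and 8 rose with mRNA plus antibody and 0 fell, beside 8.72% and 14.5% of all genes. They were led by Bcl2l10, an apoptosis regulator, at 1.88 ± 0.17 (adjusted p = 0.00037), Ybx2, a binder of stored mRNA, at 1.78 ± 0.17 (adjusted p = 0.00045) and Wee2, an oocyte kinase that inhibits CDK1, at 1.92 ± 0.23 (adjusted p = 0.0014). With antibody alone 3 rose, Wee2 at 1.92 ± 0.23 (adjusted p = 0.0062), the deadenylase subunit gene Cnot7 at 1.14 ± 0.24 (adjusted p = 0.031) and Bcl2l10 at 0.74 ± 0.17 (adjusted p = 0.039), beside 2.75% of all genes called higher. All 3 calls ended without non-manipulated replicate 1 (adjusted p = 0.084, 0.20 and 0.24) or 2 (adjusted p = 0.069, 0.18 and 0.24), and those of Cnot7 and Bcl2l10 without either Trim21 mRNA replicate (adjusted p = 0.066 and 0.087). The list medians were 0.92 and 0.22. After median centring 4 rose and 1 fell in the first comparison and 1 rose in the second, and after quantile normalization 11 and 4 rose.

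Markers of cells that surround or could accompany an embryo were read on the same arrays. Of 21 cumulus and granulosa markers 18 were measured, and their mean log2 level was 5.13 and 5.22 with mRNA plus antibody, against 4.95 and 4.95 with Trim21 mRNA, and 5.38 and 5.37 with antibody alone, against 4.94 and 5.27 in non-manipulated embryos. Between 7 and 10 of the 18 were above the array median. Cyp11a1, a steroid-producing enzyme, stood at 9.93 and 9.05 with antibody alone, against 6.38 and 6.32 in non-manipulated embryos, and it and Star were the 2 markers called higher there. Has2 was the 1 called higher with mRNA plus antibody. Over all genes 2.75% were called higher with antibody alone and 8.72% with mRNA plus antibody. The inhibin subunit gene Inha, named after its values were seen, stood at 6.13 and 5.92 with mRNA plus antibody, against 7.30 and 7.01 with Trim21 mRNA, and at 5.90 and 7.67 with antibody alone, against 6.30 and 10.32 in non-manipulated embryos. The part of these markers in the results was not tested.

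Endothelium, a known source of Plat, was read through 6 markers whose mean log2 level was 5.97 and 5.92 with mRNA plus antibody, against 5.65 and 5.59 with Trim21 mRNA, and 6.0 and 5.90 with antibody alone, against 5.58 and 5.62 in non-manipulated embryos. Of the 6, Cdh5 was called higher by limma with mRNA plus antibody and none with antibody alone, where 2 had an unadjusted p under 0.05. The part of these markers in the values of Plat was not tested. Oviduct epithelium (6 of 7 markers measured) had 1 call, Epcam lower with mRNA plus antibody, and blood and immune cells (5 of 7 measured) had 0 calls in both comparisons, with 1 and 0 at an unadjusted p under 0.05. These counts stand beside 8.72% of all genes called higher and 14.5% lower with mRNA plus antibody, and 2.75% and 7.28% with antibody alone.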

How the data were processed

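RNA of 8 pools of 100 embryos was amplified and labelled with biotin by the GeneChip WT Pico kit, per the labels' protocols, and read on 1 Affymetrix mouse array each. The authors deposited the arrays as log2 values per transcript cluster, and 7 of the 8 columns are classed as log2 here. The column of the other array, non-manipulated replicate 1, holds the same scale. It is classed as a score here, because 1 deposited cell was impossible as a log2 value. Per the submitters' processing notes Affymetrix Expression Console was used; its settings were not found in the labels or headers. No further normalization was applied.

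That cluster was dropped, leaving 65955, of which 31265 named 1 gene, 1484 several and 33206 none in the platform annotation; 1153 symbols were updated. For each of the 441 genes on several clusters the one with the highest mean was used, giving 30709 genes. Limma 3.58.1 in R 4.3.3 fitted 4 group means (4 residual degrees of freedom, 6.83 after moderation) with Benjamini-Hochberg adjustment, and a call is an adjusted p under 0.05. Differences carry limma's standard errors and 95% intervals, whose precision is limited by 8 arrays. The fit was tested on simulated data in which each gene had the same spread in all 4 groups. That test does not cover gaps between pools that differ by group, as they did here.

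The 10 genes and all lists were chosen with earlier results of these data known. Named are the 10 genes, up to 3 called genes per list and comparison by rank of p (where none was called, the top 1), and the 2 genes most like each member. Alternatives were 3 scalings, a filter at a mean log2 of 5, other treatments of clusters, a trended robust prior, fits of only the groups compared, a replicate block and each array left out. Promoters came from RefSeq (GRCm38.p6), whose table held 5 of the 10 genes.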

Additional observations from a re-analysis of the deposited data

Results flagged for a closer look

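In 5 of the 47 genes measured in the related lists the difference with antibody in embryos given Trim21 mRNA exceeded that in embryos without it, by a called interaction (limma, Benjamini-Hochberg over all genes). Only the difference without the mRNA also holds the injection itself, so mRNA and injection cannot be told apart here. In none of the 47 was the called interaction negative, and over all genes 0.625% were called higher and 3.46% lower. Each was called under 2 of 3 other scalings and in 2 of the 8 fits that left out an array. The interaction of Nobox, the homeobox regulator, was 1.96 (adjusted p = 0.018, at most 0.12 with an array left out). That of Npm2, a histone chaperone of the egg, was 2.16 (adjusted p = 0.022, at most 0.13). That of Izumo1r was 1.69 (adjusted p = 0.043, at most 0.21). That of Ybx2 was 1.27 (adjusted p = 0.035, at most 0.21). That of Cpeb1, a regulator of cytoplasmic polyadenylation, was 1.11 (adjusted p = 0.036, at most 0.22).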

How the results depend on the processing

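Of 1040 values of the 10 genes under the alternatives, 915 kept their side of the threshold, 73 lost a call, 52 gained one and no called value turned its sign, while 38 uncalled values did. With mRNA plus antibody against Trim21 mRNA, 5 genes were called, between 2 and 8 with an array left out, and 8 without both antibody-alone arrays, an alternative chosen after seeing the data. With antibody alone against non-manipulated embryos, 6 were called, 2 after median centring, 0 when only these groups were fitted and between 0 and 8 with an array left out. With Trim21 mRNA against non-manipulated embryos, 0 were called, and 3 when only these groups were fitted. With mRNA plus antibody against antibody alone, 4 were called, 2 after cyclic loess, 0 when only these groups were fitted and between 0 and 8 with an array left out. With mRNA plus antibody against non-manipulated embryos, 3 were called, 7 after quantile normalization, 8 after cyclic loess and between 3 and 4 with an array left out. The interaction gave 0 calls, and between 0 and 3 with an array left out. With the replicate number as a block the counts were 5, 6, 0, 3, 3 and 0 in this order of comparisons, and the call lost was that of Plat against antibody alone (2.60, adjusted p = 0.055). The deviations of same-numbered pools correlated between −0.191 and 0.143, so the numbers do not pair the pools. Of all genes, 9.76% were called with antibody alone against non-manipulated embryos after median centring, in place of 10.0%. When only these groups were fitted, 0% were called. With mRNA plus antibody against antibody alone, 14.4% were called after cyclic loess and 4.58% when only these groups were fitted, in place of 14.8%. Over all genes the share called ranged from 11.0% to 46.2% in the first comparison and from 0% to 44.9% in the second. With an array left out, a lone pool is assumed to vary like the other groups. A smaller fit also holds fewer arrays, and the cause of these changes was not tested.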
